A study of Solanum tuberosum and Solanum acaule with 12 samples.

Results

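The cultivar Atlantic is an autotetraploid potato, and the deposited placement table of its transcripts names chromosomes with a final number from 0 to 4. The gene models described here are those on chromosome names that end in 0, called copy 0, and they are compared with the models on copies 1 to 4. The table does not say what the 0 stands for. It lists 10227 gene models on copy 0. Of these, 4880 carried at least 1 transcript that lists no other gene model, and 3377 of them had a summed signal of 1 or more in at least 3 libraries. These 3377 models are the members, against 33651 models on copies 1 to 4 that met the same rule, 37028 in all. The limit fell in a dense part of the distribution: for the models nearest to it, the third highest value was 1.002 just inside and 0.999 just outside, and 62 members lay within 0.1 above it and 65 models within 0.1 below. Of the 1503 models that did not pass, 48 were at 0 in every library.

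RNA came from shoot explants of S. tuberosum cv. Atlantic, with 3 libraries per group that the series' design text calls biological replicates. For the freezing group a growth chamber was brought down from 22 °C by 2 °C each hour until it reached -4 °C, and the control group stayed under long days. All 6 libraries are of the same genotype, and no transgene or other agent is named. The series also holds S. acaule libraries, which have a table of their own and were not used here. Tissue markers could not be checked, since 0 of the deposited transcript and gene model names matched the reference table of gene names. For the same reason no function is given for any model. At most 2 names that rose and 2 that fell are printed, and the other models are given by chromosome, start and end of their most abundant transcript as the deposited table writes them, with no genome build named there.

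In an autotetraploid each chromosome is present in several homologous copies, and a gene can be present on each of them in different versions. A phased assembly places these versions on separate sequences. Reads from regions that are alike in all versions cannot be assigned to one of them with certainty, so the level of a gene model depends on how many other models share its sequence and on how shared reads were divided. How the authors divided them is not given in the sources used here. In plants, freezing temperatures start wide changes of transcript levels within hours, in which genes of cold acclimation and dehydration tolerance are known to rise and many growth genes to fall.

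The members were spread unevenly over the chromosomes. Chromosome 10 held 589 members, which made up 30.8% of its models on copies 0 to 4. Chromosomes 1, 12 and 9 followed with 450, 416 and 340 members. On chromosomes 12 and 9 these were 14.8% and 12.1% of the models, and on chromosome 1 the 450 stood beside 4047 on its other copies. The fewest were on chromosomes 3, 5 and 2, with 92, 105 and 127 members, or 2.43%, 3.77% and 2.58%. The listed copy 0 models differed in order, with 625, 402 and 313 on these chromosomes. On chromosome 3, only 124 of the 625 had a transcript that lists no other model. Chromosome 7 had 1069 listed models and 273 members, and chromosome 12 had 721 and 416. Among copy 0 models with such a transcript, placements reached from 15823 to 38128116 on chromosome 1 but only from 1270247 to 6842712 on chromosome 2. The stretch between the outermost of these placements thus differed widely between these chromosomes.

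Transcripts on copy 0 were also harder to tie to 1 gene model. Of the 25783 transcripts with a model on copy 0, 13634 (52.9%) listed that model alone, against 60.8% to 64.2% on copies 1 to 4. Another 4102 listed several models that were all on copy 0, and 8047 listed models on copy 0 and elsewhere. Only transcripts of the first kind enter the values here. As a result 33.0% of the listed models on copy 0 became members, against 42.2% to 44.5% on the other copies. Once a model had such a transcript, the share that passed the limit was alike, at 69.2% on copy 0 and 68.7% to 69.9% on the others.

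Members on copy 0 had a higher median level than models on the other copies in each library. The values have the form of a signal per transcript length, which lets levels of different models be set side by side. How shared reads were divided is not known, and transcripts of several models were left out. The comparison thus covers the kept signal only. The median signal on copy 0 was 5.74, 6.42 and 6.14 in the control libraries and 6.56, 5.84 and 6.39 in the freezing libraries. On copies 1 to 4 it was 4.87, 5.30 and 5.10 in control and 5.39, 4.97 and 5.41 after freezing. The difference of the medians of log2(signal + 1) was 0.22 ± 0.02 (SD, n = 6 libraries), between 0.20 and 0.24, and lay above 0 in 6 of 6 libraries (two-sided exact sign-flip permutation test over the libraries, p = 0.031, which is the least that 6 libraries allow; adjusted p = 0.031 with 2 tests). This test, here and below, speaks to the spread between libraries, not between models. The median levels of copies 1, 2, 3 and 4 lay close together, at 2.63, 2.58, 2.61 and 2.63 on the log2 scale, against 2.83 on copy 0.

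The excess lay in the upper part of the range. Of the members, 33.2% had a mean signal of 10 to 100 and 3.73% one above 100, against 27.6% and 2.29% on copies 1 to 4. The 90th percentile of the mean signal was 41.7 on copy 0 and 28.6 on the other copies. Fewer members lay between 2 and 5 (26.6% against 29.6%). With every model above 0 in any library included, the difference of the medians was smaller, at 0.11 on the log2 scale, and copy 0 was above the other copies on 6 of 12 chromosomes only.

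By chromosome, the median level of the members exceeded that of each of the 4 other copies on 10 of 12 chromosomes. It was furthest above on chromosomes 3 and 7, where the median signal was 9.76 and 8.44 on copy 0 and 5.32 and 5.16 on copies 1 to 4. The copy 0 medians there rest on 92 of 625 listed models on chromosome 3 and 273 of 1069 on chromosome 7. The log2 difference there averaged 0.68 and 0.67 over the libraries and was never below 0.55 and 0.59. On chromosomes 1, 5, 6, 8, 9, 10 and 12 the difference averaged 0.13 to 0.21 and was above 0 in every library (exact sign-flip permutation tests, adjusted p = 0.0375 each over 12 tests, as for chromosomes 3 and 7). On chromosome 4 it averaged 0.14 and ran from -0.04 to 0.24, which did not pass (exact permutation test, adjusted p = 0.0682). Chromosome 11 showed no difference beyond the spread of the libraries, with an average of 0.002 between -0.05 and 0.06 (exact permutation test, adjusted p = 0.969). Chromosome 2 went the other way, at an average of -0.04 and below 0 in each library (exact permutation test, adjusted p = 0.0375), but the sign turned when a mean signal of at least 1 was asked for (0.004). With no filter it turned on chromosomes 4, 5, 6, 8 and 11 (-0.23, -0.36, -0.0701, -0.0538 and -0.16), and with transcripts of several models divided among them on chromosome 5 (-0.0321). The tests by chromosome do not speak to the spread between models.

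**Figure D1:**
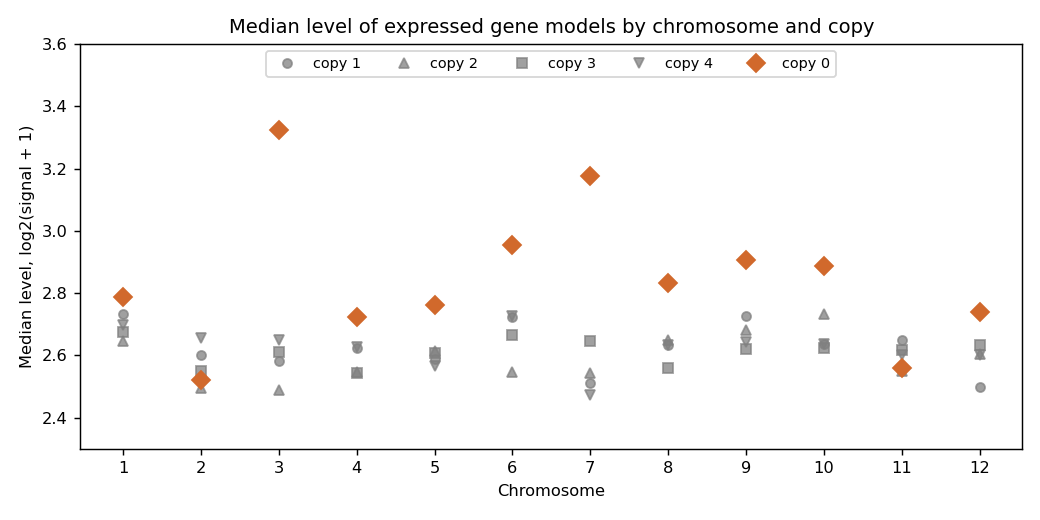
Median level of the gene models that met the rule, as log2(signal + 1) averaged over 6 libraries, by chromosome and copy; orange diamonds are copy 0 and grey symbols copies 1 to 4. Copy 0 lies above the 4 other copies on 10 of 12 chromosomes, furthest on chromosomes 3 and 7, and within their range on chromosomes 2 and 11.

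Copy 0 models belonged more often to assembled loci with passing models on few copies. A locus is a set of transcripts with the same assembly number, and each model was given the locus of its most abundant transcript. Only passing models were counted, so a locus called absent from a copy may still be placed there by transcripts left out. For 1051 members (31.1%) the locus had no passing model on any other copy of the chromosome, against 18.4% of the models on copies 1 to 4. Loci on 4 copies held 359 members (10.6%), against 29.3% of the models on the other copies. The median signal of members was lowest for loci on 1 copy and highest for loci on 3: it was 5.07, 6.61, 8.14 and 6.15 for loci on 1, 2, 3 and 4 copies. On copies 1 to 4 it was 3.55, 5.58, 5.83 and 5.87.

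Within each of these classes copy 0 remained above the other copies in 6 of 6 libraries. The difference of the median log2 levels averaged 0.42 for loci on 1 copy, 0.23 for loci on 2, 0.38 for loci on 3 and 0.06 for loci on 4 (exact sign-flip permutation tests, p = 0.031 each, the smallest possible, adjusted p = 0.031 over 4 tests). The class of loci on 4 copies therefore showed little of the difference, between 0.02 and 0.12 over the libraries.

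A direct comparison within loci gave the same direction. Passing models on copy 0 and on copies 1 to 4 were present for 2658 loci, and 2390 members (70.8%) had their main locus among them. Here and for all counterparts below, loci were matched by assembly number alone, so models on copies 1 to 4 could lie on any chromosome. Where members are set against counterparts below, any passing model with at least 1 kept transcript of the member's main locus counts as a counterpart. Its level and change are those of the whole model, even if its own main locus is another. The copy 0 signal of a locus, summed over its models there, was set against the mean signal per model on the other copies. The median log2 ratio was 0.15, 0.15 and 0.16 in the control libraries and 0.16, 0.15 and 0.16 in the freezing libraries, which is 0.16 ± 0.005 over all libraries (SD, n = 6; the exact sign-flip permutation test gave p = 0.031, and 0.031 when adjusted for 2 tests). Because 184 of the loci had more than 1 model on copy 0, the ratio was also taken per model on both sides, which gave 0.11. In all 6 libraries 309 loci (11.6%) were at least 2-fold higher on copy 0 and 122 (4.59%) at least 2-fold lower. Taken per model on both sides, these became 249 (9.37%) and 125 (4.70%), so single loci differed far more than the median.

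Of the 10 members with the highest control mean, more lay on chromosome 9 than on any other chromosome. The 10 members with the highest mean held 11.4% to 16.6% of the signal of copy 0 in a library. For copies 1 to 4, the 100 highest models, in the same proportion to the number of models, held 12.02% to 15.5%, within the range of copy 0. The first by control level, at 36561334 to 36562659 on chromosome 9, had a signal of 1270, 1890 and 1238 in control and 1453, 1643 and 1289 after freezing, with overlapping groups. Its 3 counterparts on other copies had means from 106 to 3150 over the 6 libraries, so at least 1 lay above it. The next was at 31675338 to 31677079 on the same chromosome, with 1672, 1054 and 1396 in control and 699, 1257 and 799 after freezing. Its groups also overlapped, and its locus had no passing model on another copy.

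A pair of members of this set shared a locus. They lay at 3220154 to 3224008 and 2027971 to 2031829 on chromosome 9, with control means of 1243 ± 112 and 1155 ± 86.9 and freezing means of 1043 ± 142 and 932 ± 150 (SD, n = 3 per group). Models of the same locus on the other copies had means of 953 and 989 over the 6 libraries, close to the copy 0 values. None of the 10 members with the highest control mean was called as changed by freezing (limma adjusted p = 0.0802 to 0.978). The lowest p among them was that of the model at 1338075 to 1342034 on chromosome 10, at 1296, 682 and 1275 in control and 262, 609 and 365 after freezing. Its groups did not overlap, the log2 fold change was -1.42 (SE 0.40), and the call was made without freezing replicate 2 and with array weights (limma adjusted p = 0.0127 at the lowest, 0.233 at the highest of 15 alternatives).

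The highest member of the other chromosomes was lower. On chromosomes 1, 6, 10, 4 and 3 its control mean lay between 779 and 1131, on chromosomes 12, 7, 8, 2 and 11 between 301 and 671, and on chromosome 5 it was 107. That member of chromosome 5, at 13146153 to 13152774, had 103, 120 and 99.2 in control and 151, 158 and 172 after freezing. Its groups did not overlap, but it was not called (log2 fold change 0.58, SE 0.16, limma adjusted p = 0.0829). None of the 12 highest members of a chromosome was called.

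After freezing, 104 members were called higher and 151 lower by limma at an adjusted p under 0.05, fitted over all 37028 models. This is 3.08% higher and 4.47% lower, where 3.15% of all models were called higher and 3.84% lower. In either direction 7.55% of the members were called, against 6.99% of all models and 6.94% of those on copies 1 to 4 (3.16% higher and 3.77% lower). The share of higher calls was thus that of the background, and the share of lower calls was 0.63 percentage points above it. Taken singly, copies 1 to 4 ranged from 2.92% to 3.45% higher and from 3.67% to 3.84% lower. The median log2 change of all members was 0.02, with quartiles of -0.28 and 0.30, against 0.03 with quartiles of -0.26 and 0.30 on the other copies. In bulk tissue, fewer cells of a type and less RNA per cell cannot be told apart.

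These counts depended on the fit and on few libraries. The higher and lower members were 194 and 244 with transcripts of several models divided among them and 19 and 31 with the replicate number as a block. They were 524 and 455 with array weights and 70 and 58 with a mean signal of at least 5, so that higher members were then the more numerous. Without control replicates 1, 2 and 3 the higher members became 9, 17 and 21 and the lower ones 19, 21 and 42. Without freezing replicate 3 they became 29 and 43, and without freezing replicate 2 they became 182 and 190. In each fit without a library named here the share of lower members was above the share over all models, for example 0.563% against 0.378% without control replicate 1 and 5.63% against 5.17% without freezing replicate 2. With transcripts that list several models divided among them, it was below, at 3.73% against 3.90%.

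Change and level were related among the called members. Of the 151 lower members, 117 had a mean signal under 10, which is 5.5% of the 2129 members at that level against 4.22% on copies 1 to 4. Among the 1248 members at 10 or more, 54 (4.33%) were higher and 34 (2.72%) lower, close to the 4.51% and 2.73% on the other copies. Called members differed by at least 0.60 on the log2 scale, with a median change of 1.19 among the higher and -1.21 among the lower members. All 255 called members had groups that did not overlap; so did 33.7% of all members, against a background of 32.2% of all models and 32.1% of those on copies 1 to 4.

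**Figure D2:**
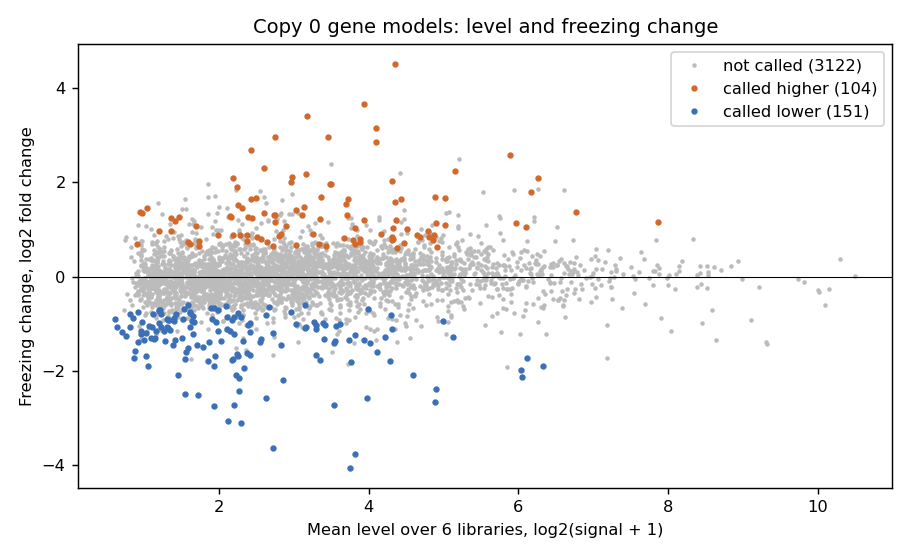
Freezing change (log2 fold change) of the 3377 members against their mean level, log2(signal + 1); orange marks the 104 called higher, blue the 151 called lower. Lower calls crowd at the left, where 117 of them have a mean signal under 10, and the members furthest to the right are not called.

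Members described by name or position are, in each direction, the 10 with the greatest log2 fold change among those whose higher group averaged 10 or more, a limit met by 64 risen and 49 fallen members. The one that rose most was Soltu.Atl.08_0G002000, at 2076415 to 2080577 on chromosome 8. Its signal was 3.91, 1.74 and 4.86 in control and 84.5, 187 and 56.8 after freezing. The groups were far apart, while the freezing libraries differed among themselves by more than 3-fold. On the log2 scale it rose by 4.51 (SE 0.47, limma adjusted p = 0.00747, 0.00166 to 0.0465 over the alternatives). The locus had 2 models on other copies, both called higher, with log2 fold changes of 4.03 and 4.44.

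Soltu.Atl.08_0G004010, at 4296825 to 4298555 on chromosome 8, belonged to a locus with no passing model on another copy. It had 1.79, 3.0 and 6.14 in control and 46.7, 25.9 and 124 after freezing. Every freezing library was above every control library (log2 fold change 3.66, SE 0.59, limma adjusted p = 0.0213), but the call was lost without any one of the control replicates (up to 0.0891; 0.00243 at the lowest alternative).

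Of the 10, the rises with the smallest SE were on chromosomes 2 and 10. The model at 6838286 to 6842712 on chromosome 2 had 1.77, 1.58 and 1.98 in control and 27.0, 30.9 and 27.1 after freezing, so the libraries of a group hardly differed. It rose by 3.40 on the log2 scale (SE 0.14, limma adjusted p = 0.000749), and the 3 models of its locus on other copies were also called higher, with 2.24 to 3.10. The model at 13065690 to 13068911 on chromosome 10 had 4.68, 3.88 and 5.78 in control and 47.9, 49.2 and 53.9 after freezing. The rise was 3.16 on the log2 scale (SE 0.17, limma adjusted p = 0.00112), and its locus had no passing model on another copy. Both were called under all 15 alternatives.

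The other 6 of the risen set varied more between the freezing libraries. On chromosome 12, 3 models rose: the neighbours at 2577800 to 2578820 and 2579931 to 2580880, which share a locus, and 1 at 14046812 to 14049816. The first neighbour had 2.41, 1.17 and 0.856 in control and 49.4, 12.9 and 8.37 after freezing, the second 2.00, 0.71 and 0.836 and then 33.2, 11.3 and 5.03. Replicate 1 was the highest of the freezing libraries in both, and 2 of the 4 models of the locus on other copies were called higher. The third model rose from 1.86 ± 1.04 to 13.7 ± 7.87 (SD, n = 3 per group). On chromosome 11 the model at 5278875 to 5283512 rose from 26.8 ± 14.5 to 151 ± 60.1, and 3 models of its locus on other copies had changes of 2.01 to 2.44, of which 1 was called.

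In the remaining pair freezing replicate 3 was the highest. The model at 36797383 to 36799194 on chromosome 9 had 5.94, 3.09 and 8.11 in control and 36.3, 20.3 and 124 after freezing. That at 5969802 to 5971780 on chromosome 2 had 2.86, 3.44 and 2.54 in control and 24.9, 11.3 and 89.9 after freezing. The first had 3 counterparts, all called higher, with changes of 1.14 to 2.34, while the 4 counterparts of the second had changes from -0.38 to 1.55 and none was called. All 6 had log2 fold changes of 2.3 to 2.97 (limma adjusted p = 0.0262 to 0.0463). Each lost its call in 4 to 10 of the 15 alternatives, without any one of the control replicates in every case (adjusted p up to 0.145).

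Among the fallen members the strongest was Soltu.Atl.06_0G011900, at 25671601 to 25672512 on chromosome 6. Its signal was 44.8, 85.2 and 40.5 in control and 2.96, 1.43 and 2.71 after freezing. The lowest control library was above the highest freezing library by more than 10-fold. The log2 fold change was -4.05 (SE 0.33, limma adjusted p = 0.0038), and the locus had no passing model on another copy.

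Soltu.Atl.10_0G011810, at 22740967 to 22743974 on chromosome 10, had 53.0, 56.0 and 45.1 in control and 2.15, 4.13 and 2.44 after freezing. The libraries of each group lay close together (limma log2 fold change -3.77 with SE 0.22, adjusted p = 0.00128). Its locus carried 5 models on other copies, of which 3 were called lower and none higher. Their log2 fold changes ran from -4.18 to -0.17 and their means over the 6 libraries from 10.5 to 2165. The values -0.17 and 2165 recur among the counterparts of the chromosome 10 member at 19293670 to 19296085, whose main locus is another. A pair of models on chromosome 11 also fell. That at 25643788 to 25648921 had 25.8, 24.1 and 18.0 in control and 1.07, 0.719 and 0.867 after freezing (limma log2 fold change -3.64 with SE 0.18, adjusted p = 0.00106). Its 1 counterpart on another copy changed by -3.71 and was called too.

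The second of chromosome 11, at 3963618 to 3964745, went from 14.0, 13.8 and 12.6 to 1.39, 0.542 and 0.277, with 3 counterparts called lower at -2.02 to -1.74. On chromosome 6 the models at 18377213 to 18380677 and 19075918 to 19078778 fell from 12.1 ± 4.33 to 0.508 ± 0.11 and from 74.1 ± 15.6 to 11.4 ± 4.71 (SD, n = 3 per group). The second of these lost its call without control replicate 1 and with the replicate block (limma adjusted p = 0.0598 at the highest). On chromosome 10 the models at 321770 to 328617 and 28415079 to 28415759 fell from 29.3 ± 5.04 to 3.54 ± 0.712 and from 37.5 ± 3.21 to 5.65 ± 1.97 (SD, n = 3 per group), with overlap in neither.

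The last pair of fallen models depended on the setting. The model at 2133817 to 2134200 on chromosome 7 had 2.71, 13.1 and 17.7 in control and 0.329, 0.27 and 0.932 after freezing, so control replicate 1 was far below the other controls. It was called in 7 of 15 alternatives (log2 fold change -2.74, SE 0.58, limma adjusted p = 0.0403, 0.0193 to 0.132 over the alternatives). The model at 34196221 to 34197340 on chromosome 1 had 13.6, 15.5 and 5.93 in control and 0.376, 1.45 and 0.705 after freezing. It was called in 12 of 15 (log2 fold change -2.72, SE 0.37, limma adjusted p = 0.0139, 0.00285 to 0.0716). The 7 fallen models not described as losing a call were called under all 15.

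**Figure D3:**
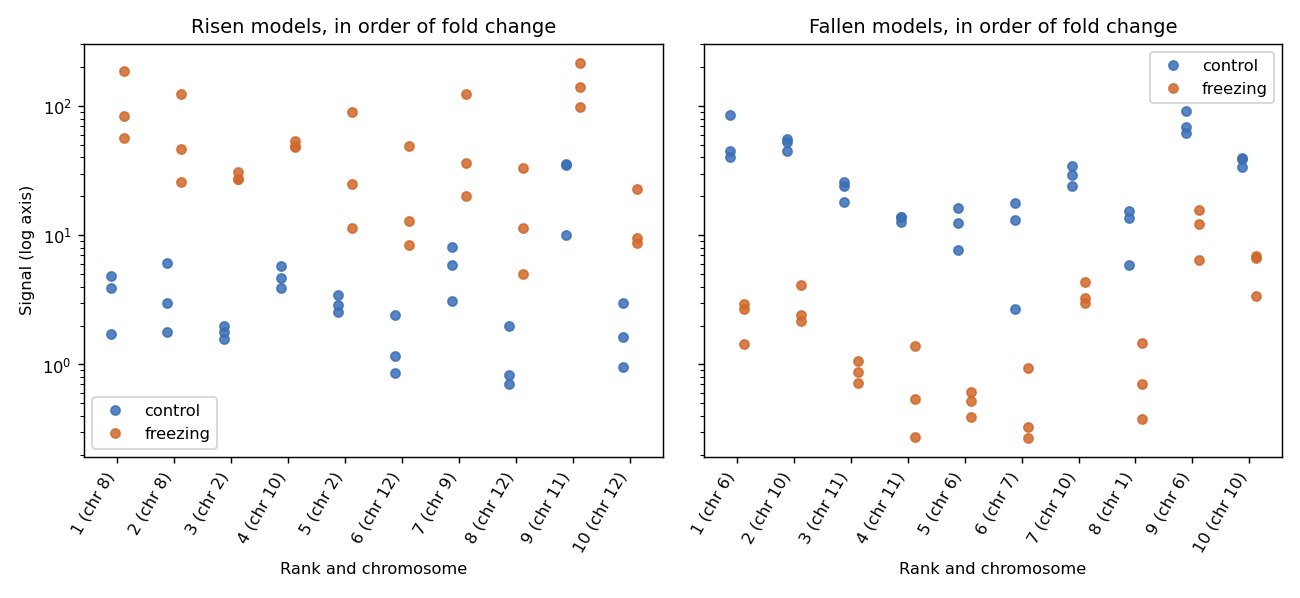
Signal (log axis) of the 10 risen (left) and 10 fallen (right) named members in order of fold change, with 1 point per library; blue is control and orange freezing. The groups do not overlap in any of the 20, and the spread between freezing libraries is wide for most of the risen models.

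Called members and their counterparts on other copies moved in the same direction in nearly all cases. Of the 104 higher members, 80 had passing models of the same locus on copies 1 to 4 of any chromosome. These were 140 different models, of which 132 had a positive log2 change and 65 were called higher. For 49 members at least 1 counterpart was called alike, and for 1 member a counterpart was called the opposite way. Of the 151 lower members, 72 had counterparts. Of these 119 different models 112 had a negative change, 57 were called lower and 0 were called higher. Copies of a locus come from the same libraries and may share reads, so these are not independent measurements. Over the 2658 loci with both sides, the freezing changes had a Pearson correlation of 0.83 across loci, given as a description. The median change of these loci was 0.04 on copy 0 and 0.03 on copies 1 to 4.

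**Figure D4:**
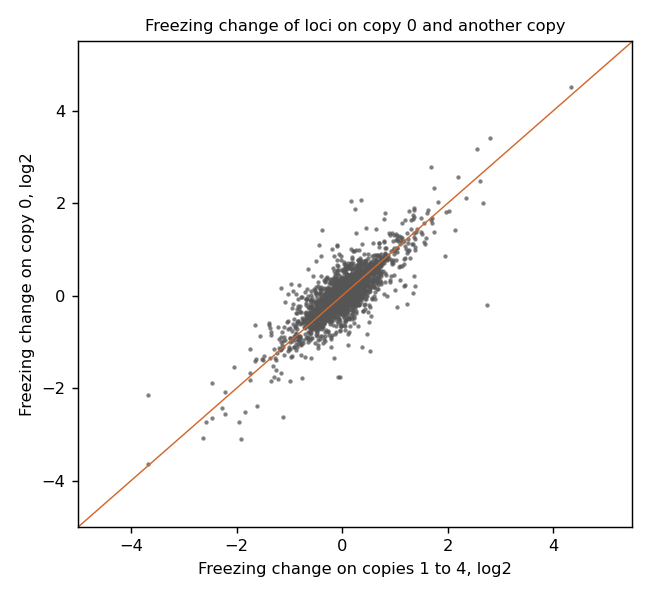
Freezing change (log2) of 2658 loci on copy 0 against the change of the same locus on copies 1 to 4 of any chromosome; each point is a locus and the line marks equality. Most points lie along the line (Pearson correlation 0.83 across loci), and a few lie well away from it.

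Members that fell were often without a counterpart. Of the 151, 72 had a passing model of the locus on copies 1 to 4 and 79 had none. Among the 104 that rose these were 80 and 24. Of all 3377 members, 2390 (70.8%) had such a model. Counted by passing models on the copies of the same chromosome, 85 of the 1051 members with their locus on copy 0 alone were lower, 8.09%, and 25 higher, 2.38%. Models on copies 1 to 4 whose locus was on 1 copy were also lower more often than the rest, 371 of 6197 or 5.99%. For loci on 2, 3 and 4 copies the lower share of members was 3.03%, 2.86% and 1.95%. On copies 1 to 4 these shares were 3.35%, 3.33% and 3.12%. Loci on 5 copies held 5 members, of which 1 was lower, and 25 models on the other copies, of which 4 were. The difference between these classes was not tested. Loci on 1 copy also had the lowest median level. Without control replicates 1, 2 and 3 the 85 members became 8, 7 and 19 and the 371 models 28, 39 and 99. Without freezing replicate 3 they became 22 and 100. The part of level in this difference was not tested.

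Neighbouring members were called in the same direction in 21 places, 5 higher and 16 lower, with 46 members. Of these, 17 were pairs and 4 held 3 members. Members in such runs made up 1.36% of all members and 18.0% of those called. On copies 1 to 4, with neighbours taken within each copy, 274 models in 59 higher and 69 lower runs made up 0.814% of the models and 11.7% of those called, with 10.7% to 12.8% in the single copies. This difference was not tested. On chromosome 7, members from 14255897 to 14316928 rose, with a summed signal of 37.7, 32.9 and 52.1 in control and 131, 215 and 179 after freezing. Most of it came from the first model, which went from 36.8 ± 10.5 to 162 ± 44.3 (SD, n = 3 per group). The other 2 share a locus and were low, so they are not separate results.

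On chromosome 9, 3 members of 3 loci between 2523458 and 2557198 rose together. Their sum was 33.5, 40.2 and 39.7 in control and 124, 113 and 161 after freezing, with log2 fold changes of 1.67 to 1.96. Counterparts on other copies were all called higher. The member starting at 2523458 had 2, with log2 fold changes of 1.34 and 1.37. The members starting at 2552785 and 2555372 had the same 2 models as counterparts, which were others, with 1.49 and 1.80. The loci of these 2 members thus lay in the same models on other copies, so they may not be separate results. Each freezing sum was above each control sum.

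The 16 falling runs were spread over 9 chromosomes, and the longest were on chromosomes 1 and 7. From 35763450 to 35789859 on chromosome 1, 3 members of 3 loci fell from a sum of 31.9, 36.3 and 17.9 to 1.53, 6.10 and 2.10. From 2818092 to 2897959 on chromosome 7, 3 members fell from 22.1, 14.6 and 13.6 to 2.79, 3.91 and 2.54, and from 421390 to 430517 a pair fell from 89.5, 78.9 and 61.8 to 21.6, 8.57 and 14.8. The controls lay above the freezing libraries in each run. These runs depended on the libraries: without control replicate 1 there were 0 higher and 1 lower runs, without control replicates 2 or 3 or freezing replicate 3 there was 1 of each, and without freezing replicate 2 there were 16 and 14.

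Freezing calls were not spread evenly over the chromosomes of copy 0. Lower members made up 8.57% on chromosome 5 (9 of 105) and 8.33% on chromosome 6 (20 of 240), against 4.11% and 3.68% of the models on copies 1 to 4 of these chromosomes. On chromosome 10, 31 of 589 members (5.26%) were lower, against 4.24%. Higher members were most frequent on chromosome 12, 21 of 416 or 5.05%, against 3.08% on its other copies. On chromosome 4, whose other copies had 4.76% higher models, 3 of 239 members (1.26%) were higher. Lower members outnumbered higher ones on 9 of 12 chromosomes, and the reverse held on chromosomes 9 and 12. These differences are descriptions with no test. Without control replicate 1 the lower members of chromosomes 5, 6 and 10 became 1, 2 and 5 and the higher ones of chromosome 12 became 3. Without control replicate 2 they became 0, 3, 3 and 4, without control replicate 3 they became 1, 7, 6 and 5, and without freezing replicate 3 they became 1, 8, 10 and 9.

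The share of signal on copy 0 did not differ between the groups beyond the spread of the libraries. Of the signal on copies 0 to 4 from transcripts with 1 model, copy 0 held 12.6%, 12.4% and 12.3% in control and 12.4%, 12.1% and 12.3% after freezing. The means were 12.4% ± 0.121 and 12.3% ± 0.114 (SD, n = 3 per group; the two-sided exact permutation test gave p = 0.2, and 0.6 when adjusted for 3 tests). The difference of the median levels of copy 0 and the other copies was 0.22 in control and 0.21 after freezing (exact permutation p = 0.9, adjusted p = 0.9), and the median ratio within loci was 0.15 and 0.16 (exact permutation p = 0.5, adjusted p = 0.75). With 3 libraries per group these tests cannot fall below 0.1, so they do not show that the groups were alike.

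By chromosome, the share of copy 0 ran from 2.09% ± 0.113 on chromosome 2 to 29.8% ± 0.803 on chromosome 10 in control (SD, n = 3). On chromosome 7 it was 18.2% ± 0.3 although only 9.97% of the models were on copy 0. On chromosome 9 it was 21.8% ± 0.971 with 12.1% of the models. The copy 0 sum there averaged 13135 in control. Members with control means of 1466, 1374, 1243, 1155 and 1115 were part of it, so few members held much of this share. The groups did not overlap on chromosomes 8 and 9, in opposite directions. On chromosome 8 the share was 12.3%, 11.9% and 13.3% in control and 14.6%, 14.0% and 13.9% after freezing. On chromosome 9 it was 22.9%, 21.6% and 21.0% in control and 19.6%, 19.7% and 20.1% after freezing. Neither passed the adjustment (exact permutation p = 0.1 each, the smallest possible; adjusted p = 0.45 over 12 tests).

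The sums behind these shares moved differently. On chromosome 8 the signal on copy 0 was 3761 ± 265 in control and 4392 ± 124 after freezing, while copies 1 to 4 were at 26318 ± 674 and 26642 ± 1204 (SD, n = 3 per group). Without Soltu.Atl.08_0G002000, which gained 106 units, the share was still 12.5% ± 0.749 and 13.9% ± 0.423. On chromosome 9 copy 0 was at 13135 ± 731 and 12812 ± 559, and copies 1 to 4 were at 47018 ± 1517 and 51819 ± 1598. The lower share on copy 0 of chromosome 9 thus went with a higher sum on the other copies. Without the member at 31675338 to 31677079, the abundant one described above, the share was 20.0% ± 0.843 and 18.7% ± 0.562, and the exact permutation p became 0.2. With the member starting at 355284, 1881657 or 36351425 left out instead, the exact permutation p stayed at 0.1.

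**Figure D5:**
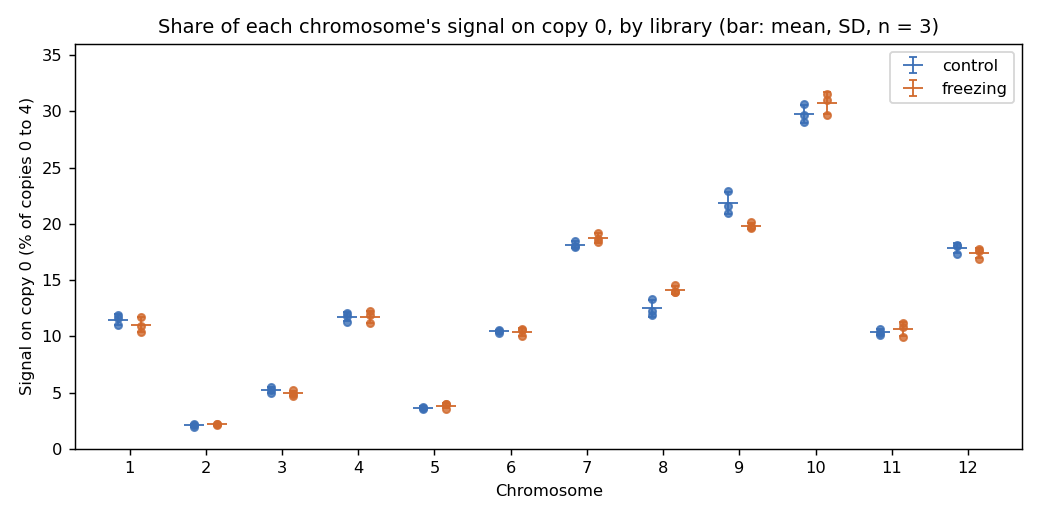
Share of the signal of each chromosome that lay on copy 0, in percent of copies 0 to 4; points are libraries, bars the mean with its SD (n = 3), blue control and orange freezing. Chromosome 10 has the highest share and chromosome 2 the lowest, and the groups are apart on chromosomes 8 and 9 only.

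Few members crossed the level of 1 between the groups. In 25 members (0.74%) each control library was under 1 and each freezing library at 1 or more, against a background of 0.84% of all models and 0.85% on copies 1 to 4. The reverse held for 59 members (1.75%), against 1.75% of all models. Most members, 2843 or 84.2%, were at 1 or more in all 6 libraries, against 83.0% on copies 1 to 4. By this count copy 0 did not stand apart from the other copies.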

How the data were processed

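Stranded mRNA libraries of 6 Atlantic samples were used. The submitters' processing notes name Trimmomatic 0.39 and DESeq2 and give neither a role. Aligner, assembler, abundance program and genome build: not given in the sources used here. For each assembled transcript and library the authors deposited a signal of the form of TPM multiplied by a TMM library factor, as read from the values and the table's name. Library totals ran from 961746 to 1102442. Since the signal keeps no depth, the depth behind a value is unknown and its precision is that of the replicates. A second deposited table, without a header, gives gene model, chromosome and other placement values (start and end) per transcript.

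Values of transcripts that list 1 gene model were summed per model with pandas 2.3.3. Left out were the transcripts that list more than 1 (66844 of 224656 placed) and the models on scaffolds. The 37028 models that met the limit were fitted together with limma 3.58.1 (R 4.3.3) as log2(signal + 1), letting the variance follow the mean level, and p-values were adjusted by Benjamini-Hochberg over all of them (two-sided, threshold 0.05). Fold changes on that scale understate those of low models. Library measures were tested by exact permutation with scipy 1.17.1. Described individually were the members under the rule in the report, the 10 highest in control, the highest of each chromosome and the 5 longest runs of neighbours. Members, lists and tests were chosen with earlier results of these data known. The labels do not say which plants or cultures the replicates came from, and the p-values rest on how far those libraries differ, which may be technical. Counts by chromosome, number of copies and runs under each setting, the ratio and 2-fold counts per model, runs on the other copies and a fit with scaffold models were added after seeing the data. Of the value columns, 0 had no sample.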

Additional observations from a re-analysis of the deposited data

How the results depend on the processing

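The 104 higher and 151 lower members became 194 and 244 with transcripts of several models divided equally, 19 and 31 with the replicate block and 524 and 455 with limma array weights. Lower members became 58 with a mean of at least 5, where higher ones were 70. With a library left out they ran from 9 to 182 and from 19 to 190. Other settings kept both counts within 1.5 times. Higher members outnumbered lower ones with the mean of at least 5 and with array weights. The freezing shift of the copy 0 share, -0.15 percentage points, turned to 0.0398 with divided transcripts, and that of the median level difference, -0.007, to 0.00868; it was between -0.0207 and 0.00274 with a library left out. The shift of the ratio within loci, 0.004, turned to -0.00465 with a pseudocount of 0.1 and -0.00168 with no filter. The level difference of 0.22 stayed between 0.21 and 0.22 and the ratio within loci at 0.16 with a library left out, but 5 libraries cannot give a p under 0.0625. Copy 0 was above the other copies on 11 chromosomes by the average over libraries, and on 6 with no filter. There the difference was -0.23 on chromosome 4, -0.36 on 5, -0.0701 on 6, -0.0538 on 8 and -0.16 on 11. It was 0.0513 on chromosome 2 with a mean of at least 5 and 0.00422 with at least 1, -0.0321 on chromosome 5 with divided transcripts and -0.0200 on chromosome 11 with a mean of at least 1. Leaving libraries out 1 at a time gave -0.00989 to 0.0112 on chromosome 11. Whether equal replicate numbers mark pairs is not stated, and they were not treated as such; deviations of same-numbered libraries correlated at 0.11, -0.28 and 0.006, and over same-numbered pairs the replicate block gave an exact permutation p of 0.25 for the share shift of -0.15, the smallest possible, and 1 for the level shift of -0.007. The ratio within loci could not be had with divided transcripts. The causes of these shifts were not tested.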
